A study of Mus musculus with 10 samples.

Results

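Ttc8, the BBSome genes around it and the centrosomal gene Cep112 make up a set of 10 genes among the 21849 of the count table, each matched by its mouse Ensembl identifier: Ttc8, Bbs1, Bbs2, Bbs4, Bbs5, Bbs7, Bbs9, Bbs10, Arl6 and Cep112. All 10 passed the filter on low counts, as did 12929 genes in all. The set was chosen by earlier results on the diet difference of counts in these same libraries, so that difference is given here as a description, with no p-value for any member. The libraries came from 10 tumours that CT26 cells, a mouse colon carcinoma line of BALB/c origin, formed under the skin of BALB/c mice. The mice were 5 weeks old at assignment and received a normal diet (5 libraries) or an arginine-deficient diet matched to it in calories (5 libraries), starting 1 week before implantation, and tumours were taken on day 20. Each library holds total RNA of tumour tissue, host cells included, from a single cell line without an engineered allele, and fewer cells of a type and less RNA per cell cannot be told apart in it.

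The BBSome is a coat-like complex of 8 subunits that carries membrane proteins out of the primary cilium, the antenna that many non-dividing cells raise from a centriole. TTC8, also called BBS8, and BBS4 are subunits built from TPR repeats, whereas BBS1, BBS2, BBS7 and BBS9 hold beta-propellers, BBS5 binds membrane lipids, and BBIP1, encoded by Bbip1 outside the set, is the small remaining subunit. BBS10 belongs to the chaperonin-like proteins that help to assemble the complex, and ARL6, a small GTPase, brings it to membranes. CEP112 is a coiled-coil protein of the centrosome. Loss of BBSome genes in people causes Bardet-Biedl syndrome, a disease of cilia.

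Ttc8 (ENSMUSG00000021013.16) lies on the plus strand of mm10 chromosome 12, positions 98920574 to 98983238, and Cep112 (ENSMUSG00000020728.17) on the plus strand of chromosome 11, positions 108425192 to 108860615. The promoters of both are printed because these genes had the largest diet differences of the set. Each window runs from 250 bases before to 50 bases after the gene's start (RefSeq, build GRCm38.p6, 5′ to 3′ on the gene's strand). That start is RefSeq's, and for Cep112 it lies inside the mm10 span given above, downstream of its first base. Capitals mark matches to an X-box form, GTNNCCNNNGNNAC, sought on both strands, the kind of element that RFX transcription factors bind in genes for cilia.
Ttc8 chr12:98920324-98920623: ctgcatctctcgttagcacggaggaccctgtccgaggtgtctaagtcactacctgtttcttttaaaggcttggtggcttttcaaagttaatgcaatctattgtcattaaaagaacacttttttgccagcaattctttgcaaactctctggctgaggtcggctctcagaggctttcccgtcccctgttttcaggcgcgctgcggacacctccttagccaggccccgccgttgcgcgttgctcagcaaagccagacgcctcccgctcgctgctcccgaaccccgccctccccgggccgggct
Cep112 chr11:108425016-108425315: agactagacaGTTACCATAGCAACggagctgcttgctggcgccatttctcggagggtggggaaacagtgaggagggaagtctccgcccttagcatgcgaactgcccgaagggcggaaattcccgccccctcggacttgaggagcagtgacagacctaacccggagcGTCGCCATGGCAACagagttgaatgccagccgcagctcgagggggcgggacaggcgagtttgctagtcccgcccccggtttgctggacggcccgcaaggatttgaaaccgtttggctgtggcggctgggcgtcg
The Cep112 window held 2 separate matches, GTTACCATAGCAAC starting 240 bases and GTCGCCATGGCAAC starting 84 bases before the RefSeq start, and the Ttc8 window held none. RefSeq gives 2 further Cep112 starts inside the gene, and neither of those windows held a match.

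Of the 10 genes, all with a RefSeq promoter, 4 held an X-box match in at least 1 window, against 4.62% of the 32851 promoters in the table. That share counts promoters singly, whereas genes with several windows have more chances of a match. Counted by gene, the share was 16.9% of 154 genes in the cilium and centrosome lists described below, members included. Besides Cep112, the 3 other members with a match are shown for comparison, each as the matched 14 letters alone.
Bbs7, starting 121 bases before the RefSeq start: GTTGCCTTGGAAAC
Bbs1, starting 1 base after it: GTTGCCAAGGCGAC
Bbs4, starting 23 bases after it: GTCGCCCGGGAAAC
These 3 sites, and the nearer Cep112 site, also match when read on the other strand and were counted once. The CCAAT box, sought on both strands, stood in windows of Bbs1, Bbs10 and Arl6 and in 37.4% of all promoters. The form TGATGNAA, an element of the kind that the amino acid stress factor ATF4 binds, was in none of the 10 genes' windows and in 3.97% of all promoters. A match of letters is no measurement of binding, and the windows show only where these letters stand.

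Libraries held 12013178 to 31530123 counts, and at least 22 counts of every member. Skeletal muscle transcripts (12 genes summed, Acta1 at 0, 7 of 7 tested ones with a positive log2 fold change) differed widely between libraries. They stood at 6072 CPM (counts scaled to library size) in arginine-deficient replicate 3. Deficient replicate 4 had 1694 CPM and normal-diet replicate 4 had 598 CPM, against at most 76.3 CPM in any other library. Deficient replicate 3 also had 9.97% of its counts on mitochondrial genes against at most 4.44% elsewhere. Among carcinoma markers Krt20 averaged 206 CPM (174 on the deficient and 237 on the normal diet) and Krt18 13.3 CPM. Krt8 and Krt19 averaged only 0.886 and 0.422 CPM. Epcam had no more than 9 counts, Cdx2 at most 8 and Cldn4 at most 1 in any library. The epithelial label and the summed carcinoma markers thus rest mostly on Krt20 here. Of 14 library measures (totals, mitochondrial share, 2 slopes described below and 10 cell type marker sums) none passed after adjustment, and no single one could have, since the smallest p that these libraries allow does not survive adjustment over 14. The smallest values were those of erythroid transcripts (two-sided exact permutation test, p = 0.0159, or 0.222 after Benjamini-Hochberg adjustment, where 0.00794 is the smallest p possible) and of carcinoma markers (summing to 187 ± 56.4 against 255 ± 34.8 CPM, SD over 5 libraries of each diet, exact permutation p = 0.0397, adjusted 0.278).

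Ttc8 was the BBSome gene with the largest diet difference, and Cep112 differed by about as much. In the normal-diet libraries 1 to 5, Ttc8 stood at 39.2, 58.1, 53.4, 53.4 and 35.8 CPM. In the arginine-deficient libraries 1 to 5 it stood at 28.9, 26.2, 34.7, 30.7 and 31.7 CPM. Every deficient library thus lay below every normal-diet library, though the gap between deficient replicate 3 and normal-diet replicate 5 was small. The mean was 30.4 ± 3.17 on the deficient against 48.0 ± 9.82 CPM in normal-diet libraries (SD, n = 5 each), a log2 fold change of -0.66 (SE 0.15), or 63.4% of the normal level.

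Cep112 separated the diets more widely. It stood at 22.9, 26.7, 28.1, 25.8 and 20.6 CPM in normal-diet libraries 1 to 5. On the deficient diet it stood at 15.7, 13.5, 15.4, 16.1 and 15.6 CPM. Thus 4 of these 5 libraries lay within 1 CPM of each other, and the diets did not overlap. The mean was 15.3 ± 1.02 against 24.8 ± 3.03 CPM (SD over 5 libraries per diet), or -0.70 on the log2 scale (SE 0.12). Of the 10 genes, Ttc8 and Cep112 were the only ones whose diets did not overlap in the direction of the deficient diet being lower, which held for 0.812% of all genes tested (0.835% in the opposite direction). By the edgeR quasi-likelihood test 0 of the 10 members passed an adjusted p of 0.05 over all genes, as against 0.0541% of genes tested. Both passed by DESeq2 (0.896% of its genes, 0.416% lower), by limma voom with sample weights (2.88%, 1.3% lower) and by edgeR with each library's GC and length slopes as covariates (1.18%, 0.572% lower). Without normal-diet replicate 5, Cep112 alone of the members passed by edgeR (0.114% of genes in that fit, 0.0305% lower). These counts repeat the contrast on which the genes were chosen, so they are given as a description and nothing is read from them.

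**Figure D1:**
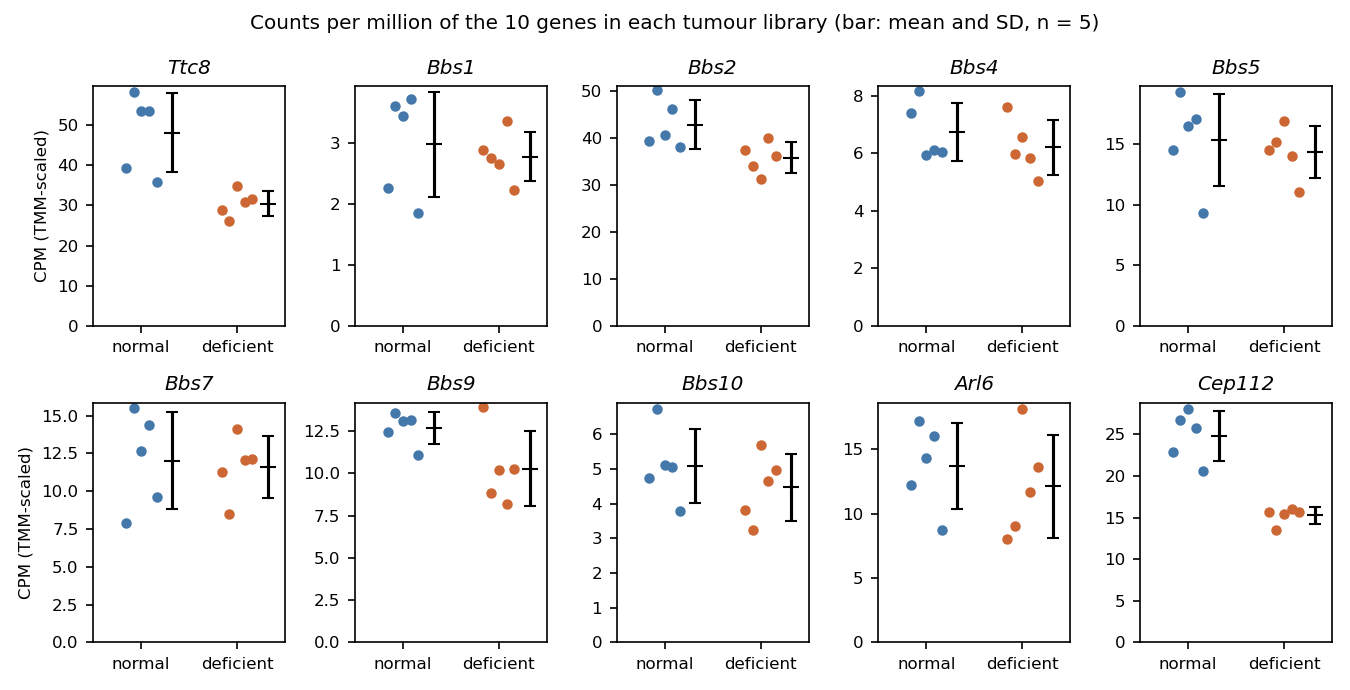
CPM of each of the 10 genes on the vertical axis for the 5 normal-diet (blue) and 5 arginine-deficient (orange) libraries; bars give the mean and SD. The deficient libraries lie below all normal-diet ones for Ttc8 and Cep112 and overlap them for the other 8 genes.

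The other BBSome subunits overlapped between the diets. Among the beta-propeller subunits, Bbs2 stood at 39.2, 50.02, 40.5, 46.1 and 37.9 CPM in normal-diet libraries 1 to 5 and at 37.5, 33.9, 31.3, 39.9 and 36.2 CPM in deficient libraries 1 to 5 (log2 fold change -0.26, SE 0.12). Deficient replicate 4 lay above 2 of the normal-diet libraries, so the diets overlapped. Bbs9 ran from 11.1 to 13.6 CPM on the normal diet and from 8.20 to 13.9 CPM on the deficient diet (log2 fold -0.30, SE 0.16), where deficient replicate 1 was the highest of all 10 libraries. Bbs7 differed by -0.05 in log2 fold (SE 0.21), with 7.88 to 15.5 CPM on the normal and 8.51 to 14.1 CPM on the deficient diet. Its spread within a diet was thus far wider than its difference between diets. Bbs1, at a mean of 2.78 ± 0.409 against 2.98 ± 0.859 CPM (SD, n = 5 each), differed by -0.10 in log2 fold (SE 0.24).

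The subunits of other build did so as well. Bbs4, the other TPR subunit, averaged 6.21 ± 0.956 against 6.75 ± 0.997 CPM (SD over 5 libraries per diet), or -0.12 on the log2 scale (SE 0.17), a smaller difference than that of Ttc8, though the gap between them was not tested. The body of the gene Adpgk on the opposite strand covers 20.1% of the Bbs4 exonic bases and its exons cover 3.21%. Strand use in counting is unknown. For Arl6 these shares are 22.0% and 2.62%, under 4930547E14Rik. Bbs5 differed by -0.10 in log2 fold (SE 0.19) and Bbip1 by -0.03 (SE 0.19). All 8 subunits therefore had a negative log2 fold change, with Bbip1 the smallest, and Bbs7 and Bbip1 turned positive in some fits that left out 1 library (up to 0.06 and 0.07). Per length of exon, Ttc8 made up 26.7% to 31.0% of the summed level of the 8 subunits on the normal diet and 20.6% to 23.6% on the deficient diet. These shares use the same Ttc8 counts by which the gene was chosen, so they restate its diet difference. The other 7 subunits together had 31.9 ± 5.22 CPM per kilobase in normal-diet libraries and 28.6 ± 2.18 in deficient ones (SD, n = 5 each), overlapping between diets.

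Assembly and membrane recruitment factors overlapped between the diets too. Bbs10 averaged 4.47 ± 0.963 against 5.09 ± 1.07 CPM (SD over 5 libraries per diet), or -0.19 on the log2 scale (SE 0.22). Its chaperonin-like relative Mkks differed by -0.03 in log2 fold (SE 0.20), with 29.3% of its exonic bases shared with exons of other genes. Arl6 had the widest spread of the set relative to its level (SD within diets 0.43 on the log2 scale), 8.06 to 18.1 CPM on the deficient and 8.75 to 17.2 CPM on the normal diet (log2 fold change -0.18, SE 0.24). Bbs12, the third chaperonin-like gene, and Lztfl1, a regulator of BBSome traffic, were listed at 0 in all 10 libraries. As 100% of the exonic bases of each lie inside other genes' bodies, these zeros are not read as absence.

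**Figure D2:**
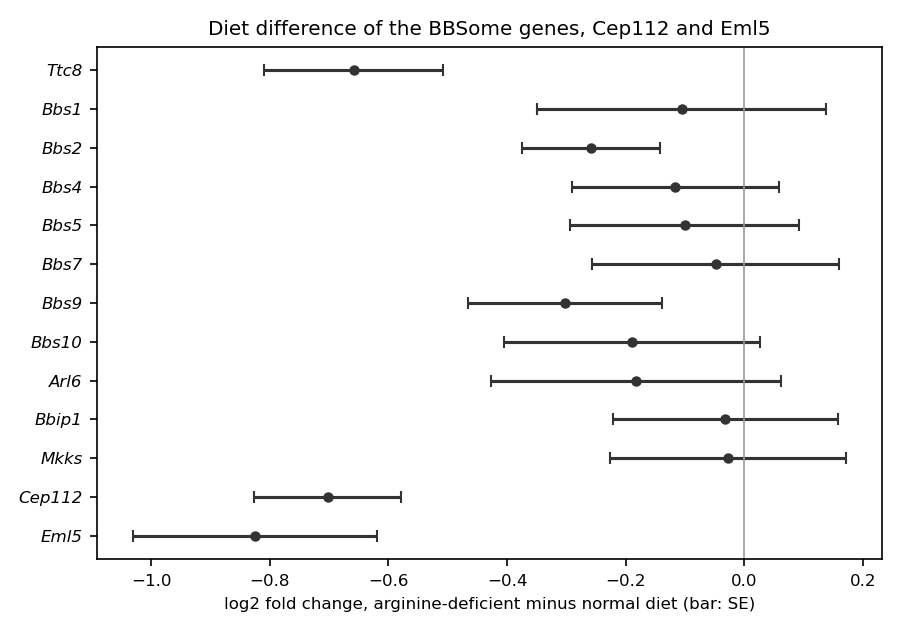
Log2 fold change of deficient minus normal diet (horizontal axis, bar SE) for the set, 2 further BBSome-related genes and Eml5. Ttc8, Cep112 and Eml5 lie between -0.66 and -0.83, and the remaining genes between -0.30 and -0.03.

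Levels of different genes were compared as CPM per kilobase of exon on the normal diet. Bbs2 (12.9 ± 1.55) and Ttc8 (12.7 ± 2.60) headed the set and did not differ beyond their spread. Bbip1 (6.91 ± 1.45), Arl6 (6.54 ± 1.60) and Bbs5 (6.28 ± 1.55) followed, also within each other's spread, then Cep112 (4.02 ± 0.491; SD, n = 5 throughout). Bbs7 (2.23 ± 0.595) and Bbs9 (2.03 ± 0.155) overlapped, Bbs10 stood at 1.67 ± 0.349, Bbs4 at 1.12 ± 0.165 and Bbs1 lowest at 0.388 ± 0.112. The messages for subunits of this complex thus spanned a wide range per length. Divided by the longest coding transcript in place of all exonic bases, Ttc8 came first (21.1 ± 4.32 CPM per kilobase) and Bbs2 (14.0 ± 1.67) came after Bbip1 (14.9 ± 3.11), while Bbs1 stayed lowest, so the order at the top depends on the length used.

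Within a diet, the genes of the set varied together across tumours, and this variation moved with measures of the libraries. With the diet means removed from log2 CPM, Pearson r over the 10 libraries was positive in 44 of 45 pairs of members, with a median of 0.51 and a highest value of 0.92 for Ttc8 with Bbs7. Each library was also given a slope of abundance on GC content and one on exonic length, from all genes tested. Ttc8 had r = -0.81 with the GC slope and 0.75 with the length slope, Cep112 -0.52 and 0.89 (diet means removed, 10 libraries). Bbip1 followed the GC slope more closely than any of the 10 members did, at r = -0.97. The summed endothelial markers had r = 0.85 with Ttc8 and 0.89 with Cep112, and the proliferation markers 0.72 and 0.85. Both lists had lower means on the deficient diet, endothelium 188 ± 19.5 against 211 ± 27.0 CPM and proliferation 1883 ± 258 against 2168 ± 289 CPM (SD, n = 5 each), with 5 of 6 and 8 of 10 tested markers lower, and their part in the result was not tested.

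With both slopes removed as well, the median r of the 45 pairs was -0.11 and 20 were positive. Positive pairs were thus fewer once the slopes were removed, and the pairs of Ttc8 itself had both signs. Ttc8 with Cep112 had r = 0.80 after this step, against 0.89 before it. Cep112 with Bbs10 also stood at 0.80, Bbs10 with Arl6 at 0.77 and Ttc8 with Bbs7 at 0.76. Others turned as strongly negative, Bbs5 with Bbs7 at -0.78, Bbs1 with Bbs9 at -0.76, Ttc8 with Bbs4 at -0.67 and Ttc8 with Bbs5 at -0.57. These values describe 10 points that share library depth and base composition. The mean slopes hardly differed between the diets (GC slope 0.0043 on the deficient and -0.0043 log2 units per 10 points on the normal diet, exact permutation p = 0.984, n = 5 each).

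**Figure D3:**
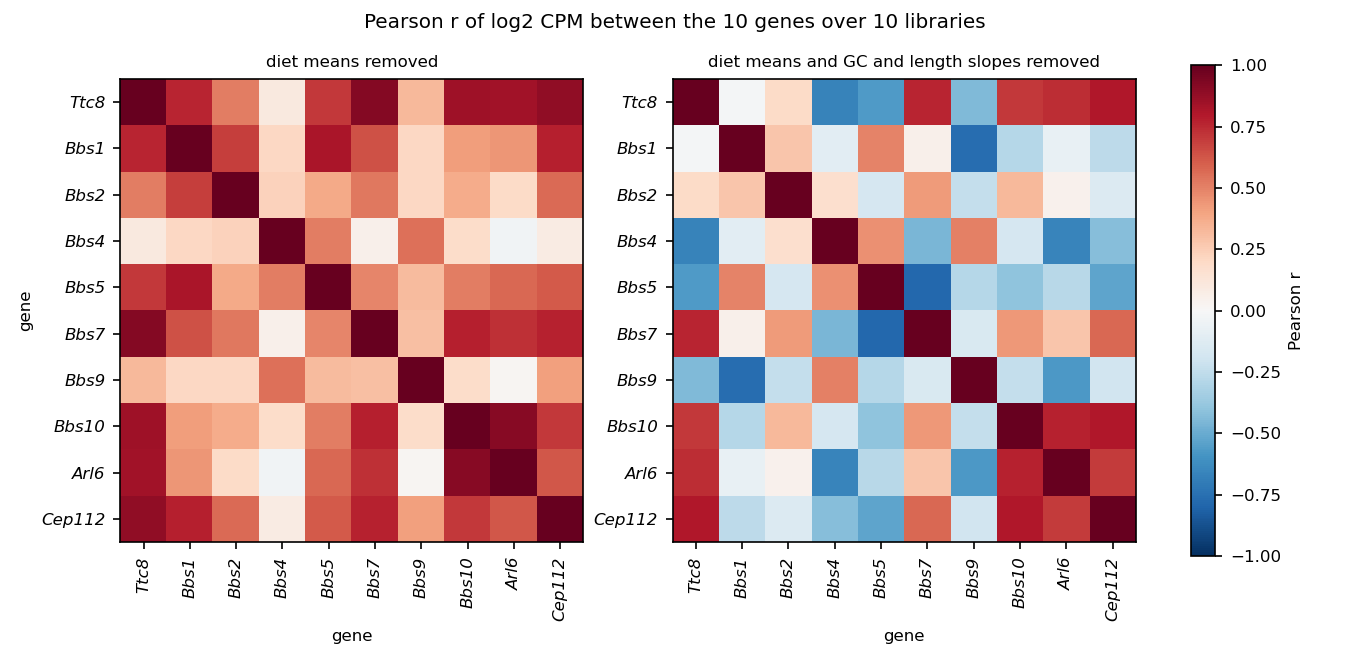
Pearson r between the 10 genes over 10 libraries, colour scale from -1 to 1, with diet means removed (left) and with GC and length slopes removed too (right). The left panel is positive in 44 of 45 pairs and the right in 20, with Ttc8, Bbs7, Bbs10, Arl6 and Cep112 still positive with one another.

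The genes most like Ttc8 across the 10 libraries, by Pearson r of log2 CPM with the diets left in and a mean of at least 2 CPM, were Mecom (r = 0.99), Brca2 (0.95), Ift57 (0.95), Ezh2 (0.95) and Cep112 (0.95). Mecom encodes a zinc-finger transcription factor, BRCA2 serves DNA repair, IFT57 belongs to the intraflagellar transport machinery and EZH2 methylates histone H3. With diet means removed the values were 0.96, 0.86, 0.94, 0.92 and 0.89, and the median over 11325 genes was -0.01. The named genes were picked for the highest r, so their distance from that median follows largely from the choice and tests nothing. With the diets left in, 20 of the 11325 genes had r over 0.90 with Ttc8, and 11 with Cep112. The GC and length slopes, which also moved with Ttc8, were not removed from these values. Another gene's body covers 57.5% of the Ift57 exonic bases. Those most like Cep112 were Tenm3 (0.97), Ptpdc1 (0.96), Matn2 (0.96), Ttc8 (0.95) and Brca2 (0.95), with 0.75, 0.69, 0.77, 0.89 and 0.90 once diet means were removed. Likeness to Cep112 thus rested more on the diet difference for Tenm3, Ptpdc1 and Matn2 than for Ttc8 and Brca2. Mecom differed by -0.43 in log2 fold (SE 0.12) and Matn2, a matrix protein, by -0.61 (SE 0.13), and neither passed (adjusted p = 0.390 and 0.163 by edgeR).

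Eml5, the nearest coding gene before Ttc8, tracked Ttc8 across the tumours. It encodes a microtubule-associated protein, lies on the minus strand of mm10 chromosome 12 from 98786805 to 98901484, and its start is 19090 bases from that of Ttc8, the genes pointing away from each other. Eml5 stood at 53.6, 104.7, 94.6, 99.5 and 71.1 CPM in normal-diet libraries 1 to 5 and at 47.1, 32.5, 52.7, 61.6 and 45.1 CPM in deficient libraries 1 to 5. Only normal-diet replicate 1 fell into the range of the deficient diet. The log2 fold change was -0.83 (SE 0.21), which did not pass (adjusted p = 0.281 by edgeR), and r with Ttc8 was 0.92, or 0.80 with diet means removed. Foxn3, the next coding gene after Ttc8, with a gap of 206839 bases, differed by -0.13 in log2 fold (SE 0.16) and had r = 0.39 with it. Beside Cep112, Apoh averaged under 1 CPM (log2 fold change -0.54, SE 0.37) and Axin2 had at most 14 counts and was not tested. The Eml5 promoter window held no X-box match.

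**Figure D4:**
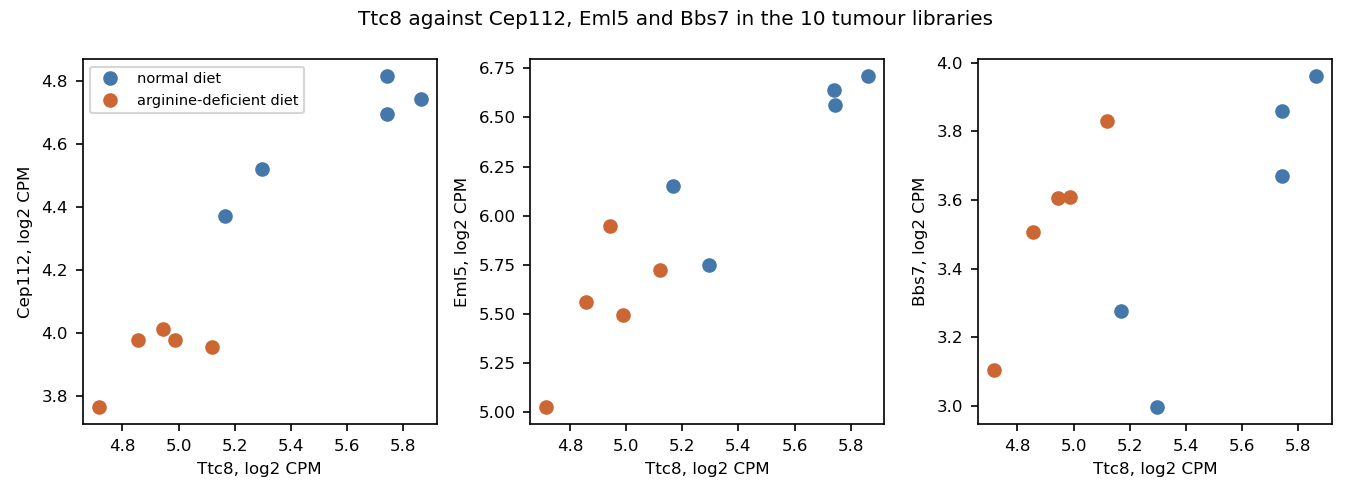
Log2 CPM of Cep112, Eml5 and Bbs7 against that of Ttc8, 1 point per library (blue normal diet, orange arginine-deficient diet). Cep112 and Eml5 rise with Ttc8 over all libraries (r = 0.95 and 0.92), whereas Bbs7 does so within each diet and its ranges in the diets overlap.

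Genes of cilia and centrosomes outside the set leaned low on the deficient diet, and none passed on its own. Of 166 such genes in 11 lists 148 were tested, and 110 of them (74.3%) lay below 0 on the log2 scale, the median being -0.12. Over all genes tested 49.7% were negative and the median was 0.00. By edgeR 0 of the 148 passed over all genes (0.0541% of all genes did), and 18 were lower at an unadjusted p under 0.05 (3.19% of all genes), 2 higher (3.54%). Without overlap between diets, 4 of the 148 were lower on the deficient diet (0.812% of all genes) and 0 were higher (0.835%). The genes named below were picked for the smallest edgeR p of their lists, so a lack of overlap follows partly from that choice. The share stayed between 69.8% and 78.4% in the alternative fits, while that of all genes ran from 47.4% to 53.9%. Its lowest value, 69.8%, came without the 3 libraries richest in muscle, where 53.9% of all genes were negative. The lists overlap, their genes are not independent, and they were drawn up with earlier results of these data known.

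Intraflagellar transport, the railway of the cilium, included the list with the lowest median of the 11. Of that IFT-B list, the train that moves outward, 14 of 16 tested genes were negative (median -0.26), among them Ift80 (52.2 ± 7.35 against 76.3 ± 21.7 CPM, SD over 5 libraries per diet; -0.55 on the log2 scale, SE 0.19, edgeR adjusted p = 0.548) and Ttc30b (-0.64, SE 0.23). In IFT-A with Tulp3, needed for the return journey and for cargo entry, 6 of 7 were negative (median -0.19), with Ift140 at 30.9 ± 5.05 against 41.2 ± 3.06 CPM (SD over 5 libraries per diet), or -0.41 on the log2 scale (SE 0.13) and no overlap between diets. Wdr19 and Wdr35 stood at -0.33 and -0.29. Among the motors 7 of 10 were negative (median -0.14). Dync2li1, a light intermediate chain of the dynein of the cilium, did not overlap between diets (log2 fold change -0.38, SE 0.11). Tctex1d2 had -0.43, while Dynll1, a light chain shared with other motors, had 0.31 (SE 0.13).

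The transition zone, the gate at the base of the cilium, was negative in 16 of 21 tested genes (median -0.19). Tctn2 averaged 9.97 ± 0.819 against 13.5 ± 1.48 CPM (SD over 5 libraries per diet; log2 fold -0.44, SE 0.13), without overlap between diets. B9d1 stood at -0.54 (SE 0.18). Of the regulators of BBSome recruitment 12 of 14 were negative (median -0.12), with Ift27, which helps the BBSome leave the cilium, at -0.37 (SE 0.17), Cep131 at -0.55 (SE 0.30) and Sdccag8 at -0.21 (SE 0.14). Of the cargo and Hedgehog list 9 of 14 were negative (median -0.12), with Evc at -0.34 (SE 0.15), Gpr161, a receptor that the BBSome removes from cilia, at -0.28 (SE 0.17) and Evc2 at -0.19 (SE 0.14).

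Centrosome genes followed. Of 35 genes named for the centrosome, Cep112 included, 26 were negative (median -0.11), with Cep72 at -0.42 (SE 0.16), Cep70 at -0.48 (SE 0.18) and Cep44 at -0.28 (SE 0.12). Cep112 had the lowest value of that list. Of centriole duplication and appendage genes 24 of 29 were negative (median -0.15), with Tubg1 at -0.38, Cetn2 at -0.31 and Poc1a at -0.39. The list of the cytosolic chaperonin with its BBS relatives differed in sign, 4 of 10 being negative (median 0.11): Cct6a had 0.27 (SE 0.11), Tcp1 0.22 (SE 0.11) and Cct2 0.16 (SE 0.10). Of the RFX and FOXJ1 regulators 4 of 7 were negative (median -0.10), with Rfx3 at -0.35 (SE 0.26), Rfx5 at -0.25 (SE 0.19) and Rfx2 at -0.10 (SE 0.14). Foxj1, the master factor of motile cilia, had too few counts to be tested, as had 6 of the 10 markers of multiciliated epithelium found in the table.

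**Figure D5:**
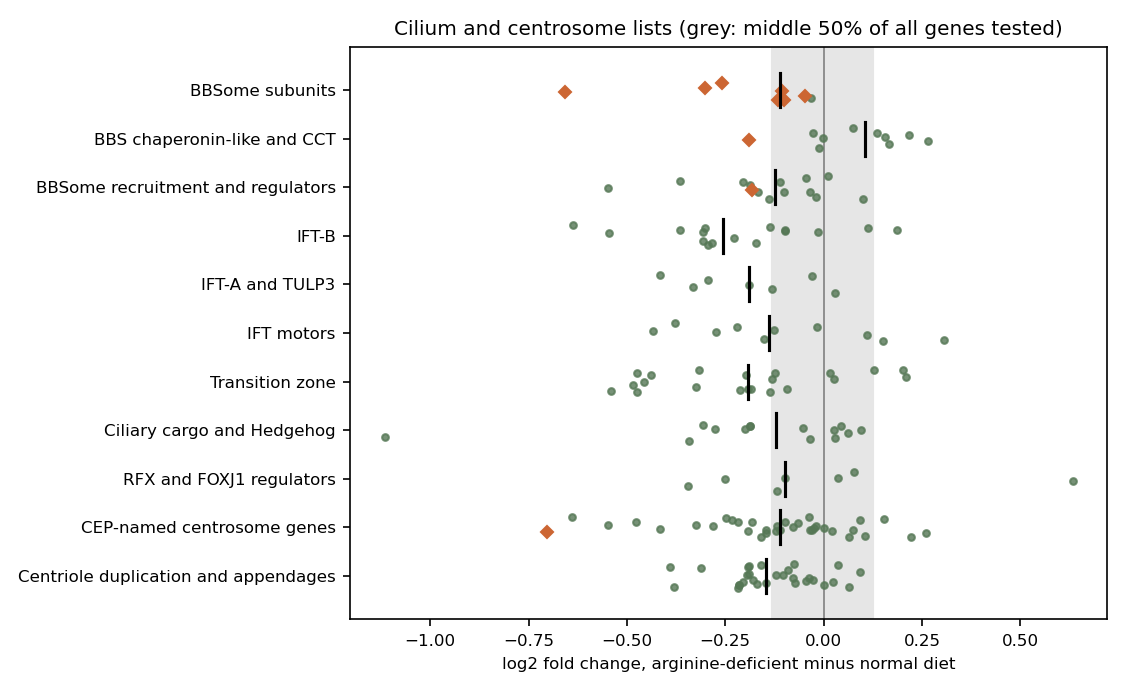
Log2 fold change (horizontal axis, deficient minus normal diet) of each tested gene in 11 lists, 1 point per gene, with the 10 genes of the set as orange diamonds, a black bar at each list's median and grey for the middle 50% of all genes tested. List medians run from -0.26 for IFT-B to 0.11 for the chaperonin list.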

How the data were processed

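RNA of 10 tumours was, per the labels' protocols, isolated with TRIzol for Illumina sequencing. The authors deposited raw read counts per gene, 1 column per library, and the submitters' processing notes name FastQC, STAR, featureCounts and mm10; the sources used here give no version, annotation or strand setting. Columns were matched by the number in each sample's description, and titles with Arg or Control were assigned to the 2 diets by the design text. Symbols, positions and lengths came from GENCODE M21 (21379 identifiers matched exactly, 437 by another version, 33 not). Every pair of libraries differed by more than sampling noise (lowest chi-square per degree of freedom 17.6). The labels do not name the animals, so p-values measure the spread between these samples.

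Diets were compared with edgeR 4.0.16 (R 4.3.3, TMM, filterByExpr with a minimum count of 10 and total of 15, quasi-likelihood F test, Benjamini-Hochberg over 12929 genes, threshold 0.05). The standard error is the estimate divided by root F. CPM of genes used TMM factors; sums of marker lists did not. Log2 CPM used a prior count of 2. The edgeR step was tested on simulated data. Members and lists were chosen with earlier results of these data known. Besides the members, 4 BBSome partners, up to 3 genes of smallest p with at least 2 CPM per list, the 5 genes most like Ttc8 and Cep112 each, and the coding genes beside both were named; a gene that this rule names is not reported here. Alternatives were other size factors, no filter or 1 CPM in 5 libraries, DESeq2 1.42.0, limma 3.58.1 voom, a replicate block, GC and length slopes, and libraries left out. In the slopes, GC is over a gene's transcripts.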

Additional observations from a re-analysis of the deposited data

Results flagged for a closer look

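Within the 5 libraries of a diet, 2 of 26 groups of values examined (13 genes in each diet) had a library standing apart from the other 4, where chance gives about 1 in 20. Cep112 was lowest in arginine-deficient replicate 2, at 13.5 CPM against 15.4 CPM in the next library. Bbip1 was highest in arginine-deficient replicate 3, at 43.2 CPM against 29.3 CPM in the next; that library also had the lowest GC slope (-0.55 log2 units per 10 points) and the most muscle transcripts.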

How the results depend on the processing

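The log2 fold changes of the 10 genes moved by less than their spread between replicates in all 18 alternatives, Ttc8 from -0.77 to -0.58 and Cep112 from -0.80 to -0.65, and Bbs7 was the only member with a positive value in any (3 of 18). Small differences moved by over 1.5 times when 1 library was left out: Bbs1 ran from -0.23 (without normal-diet library 5) to -0.02 (4), Bbs5 from -0.23 (without normal-diet library 5) to -0.0044 (2), Bbs7 from -0.17 (without normal-diet library 1) to 0.06 (2), Bbs4 from -0.21 (without deficient library 1) to -0.04 (without normal-diet library 2), Bbs10 from -0.29 (without deficient library 3) to -0.07 (without normal-diet library 2) and Arl6 from -0.37 (without deficient library 3) to -0.07 (without deficient library 1). Counts of called genes depended on the test. Over all genes edgeR called 7, DESeq2 127, limma voom with sample weights 373, edgeR with GC and length slopes 152, and edgeR without the 3 libraries richest in muscle 18. As shares of the genes tested in each fit these were 0.0541%, 0.896%, 2.88%, 1.18% and 0.139%. The shares called lower were 0%, 0.416%, 1.3%, 0.572% and 0%. Of the 10 members these fits called 0, 2, 2, 2 and 0. Of the other cilium and centrosome genes they called 0 of 148, 1 of 161, 6 of 148, 3 of 148 and 0 of 149, all lower. Ift80 and Ift140 were among them in voom and the slope fit. Leaving out each library in turn gave 0 to 16 genes over all, 0 to 1 members (Cep112 without normal-diet replicate 5) and 0 of the other cilium and centrosome genes. Over all genes 0 passed when normal-diet library 1 or 3 was left out, 2 for deficient library 1, 2 or 5 or normal-diet library 2, 16 for deficient library 3 and 15 for normal-diet library 5. The cause of these shifts was not tested. With a replicate block 1 gene passed over all and no member; same-numbered libraries had correlations of -0.35 to 0.18 in their deviations and only 1 of 10 correlated best with its own number, so the numbers do not pair them. With 22 to 91 counts per library, Bbs1 has the least depth of the set.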

Other observations

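Among the 154 genes of the cilium and centrosome lists with a RefSeq promoter, 26 (16.9%) held the X-box form GTNNCCNNNGNNAC in at least 1 window, against 4.62% of all promoter windows, and 1 held TGATGNAA (3.97% of all windows); genes with several windows have more chances of a match. Gli2, a transcription factor of Hedgehog signalling, had the lowest log2 fold change of all these genes, -1.12 (SE 0.55). Its mean was only 0.687 CPM, below the 2 CPM asked of list genes, and it was picked after its values were seen. It did not pass (adjusted p = 0.769 by edgeR).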
